A study of Mus musculus with 2 samples.

Results

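The mitochondrial ribosomal protein genes are the nuclear genes whose symbol starts with Mrps (small subunit) or Mrpl (large subunit) followed by a digit. They were chosen by name alone, without pseudogenes, and 78 of the 15508 annotated genes with reads met the rule, 29 Mrps and 49 Mrpl genes. The annotation holds 78 genes of that description, so all 78 had reads, and each had reads in both libraries.

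Transcripts were read by long-read RNA sequencing of gastrocnemius, a calf muscle, of male mice aged 36 days. Their strain, B6CASTF1/J, comes from crossing C57BL/6J with CAST/EiJ. There is 1 group of 2 biological replicates per the labels, male 03 (replicate 1) and male 04 (replicate 2), each library from 2 µg of total RNA with Lexogen SIRV and Ambion spike-ins. Both animals carry the same donor entry, there is no treatment or second genotype, and a test therefore compares these libraries only. Annotated genes held 1036455 reads in replicate 1 and 1374068 in replicate 2. Levels are given as CPM, counts scaled to 1e6 of these reads, so 3 reads, the limit that a count of 0 allows, are 2.89 CPM in replicate 1 and 2.18 CPM in replicate 2. A long read stands for a cDNA molecule, so CPM was not divided by length. The tables hold no molecular identifiers, and intervals cover counting error only. The skeletal muscle markers Ckm, Acta1, Myh4 and Tnnc2 summed to 200948 and 195066 CPM. The liver, epidermis and brown fat markers Alb, Krt5 and Ucp1 had no reads. Fibroblast markers (Col1a1, Col1a2, Col3a1 and Dcn) had sums of 3556 and 931 CPM. By the rule for calls given below, 3 of the 4 were called higher in replicate 1, beside 12.0% of all genes tested. Of the blood and immune markers Hba-a1, Hbb-bs, Ptprc and Cd68, 3 of 4 had reads, with sums of 223 and 290 CPM and Ptprc at 0. The myelin gene Mbp had 489 and 65.5 CPM. In bulk tissue, fewer cells of a type and less RNA per cell cannot be told apart.

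Mitochondria carry their own ribosomes, which translate the few messenger RNAs of the mitochondrial genome into subunits of the respiratory chain and of ATP synthase. The ribosomal RNAs come from the mitochondrial genome, but every protein of the particle is encoded in the nucleus, made in the cytosol and imported. Part of these proteins have counterparts in bacterial ribosomes and part were gained in mitochondria. Skeletal muscle is rich in mitochondria and depends on this translation for oxidative metabolism.

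The 78 genes together took 5995 reads in replicate 1 (0.578% of reads in annotated genes) and 13276 in replicate 2 (0.966%). The summed level of the Mrps genes was 2085 CPM in replicate 1 and 3174 CPM in replicate 2, a mean of 2629 ± 770 CPM (SD, n = 2). The Mrpl genes summed to 3699 and 6488 CPM, a mean of 5094 ± 1972 CPM. Mrpl transcripts thus outnumbered Mrps transcripts 1.77-fold and 2.04-fold. The Mrpl sum includes many single-exon reads of Mrpl30 and Mrpl24, and without these genes its mean was 4136 CPM. By the median gene the order was the other way round: the ratio of the Mrpl median to the Mrps median was 0.831 in replicate 1 and 0.911 in replicate 2. The 86 cytosolic ribosomal protein genes summed to 2.68 and 2.55 times the CPM of the mitochondrial ones.

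Single members were moderately expressed and spread over a wide range. The median of their mean levels was 64.8 CPM, a level reached by 1568 of all genes. Between 25 and 200 CPM lay 70 of the 78, and 5 were above 200 CPM. Across the 78 members, log2(CPM + 1) in the libraries had a Pearson r of 0.914 and a Spearman rho of 0.888, as a description across genes that share both libraries. The 20 highest members of each library had 17 in common.

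**Figure D1:**
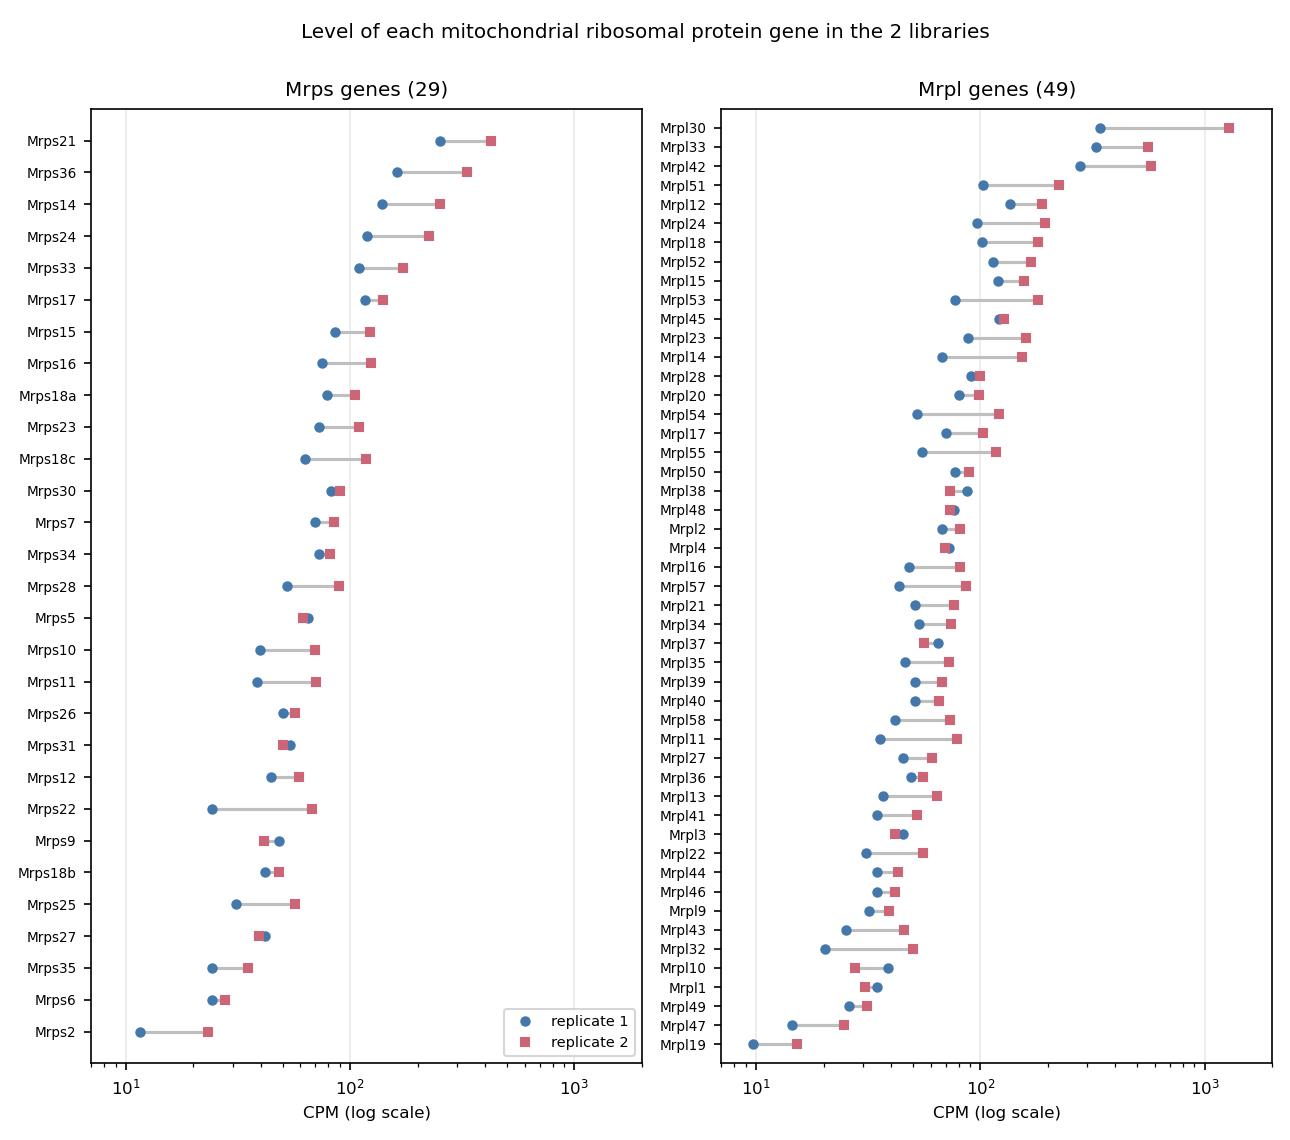
Level of each of the 78 genes (CPM, log axis) in replicate 1 (circles) and replicate 2 (squares), joined by a line and ordered by mean level, with Mrps genes on the left and Mrpl genes on the right. Replicate 2 is the higher library for most genes, and Mrpl30, at 343 and 1282 CPM, has the widest line at the top.

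Among small subunit genes, Mrps21, a counterpart of a bacterial small subunit protein, was the highest with 261 reads (252 CPM) in replicate 1 and 583 reads (424 CPM) in replicate 2. Mrps36 followed with 167 reads (161 CPM) and 456 reads (332 CPM). Its product carries a ribosomal name but is known as an adaptor of the 2-oxoglutarate dehydrogenase complex of the citric acid cycle. Mrps14 had 139 and 252 CPM and Mrps24 had 119 and 224 CPM. Both encode proteins with bacterial counterparts. At the low end, Mrps6, another conserved protein, had 24.1 and 27.7 CPM. The conserved Mrps2 was the lowest small subunit gene, with 12 reads (11.6 CPM) and 32 reads (23.3 CPM). For every one of these genes replicate 2 was the higher library.

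Among large subunit genes, Mrpl30, a conserved protein, led with 356 reads (343 CPM) in replicate 1 and 1762 reads (1282 CPM) in replicate 2. Mrpl33, a small conserved protein, had 340 reads (328 CPM) and 770 reads (560 CPM). Mrpl42, a protein without a bacterial counterpart, had 288 reads (278 CPM) and 792 reads (576 CPM). These 3 genes stood apart from the other Mrpl genes, of which Mrpl51 was the next with 103 and 223 CPM. The 5 highest members (Mrpl30, Mrpl33, Mrpl42, Mrps21 and Mrps36) held 23.6% of all member reads in replicate 1 and 32.9% in replicate 2. The lowest was Mrpl19, with 10 reads (9.65 CPM) and 21 reads (15.3 CPM), followed upwards by Mrpl47 with 14.5 and 24.7 CPM. Mrpl49 had 26.1 and 31.3 CPM.

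Mrpl33 was the member whose reads departed most from the annotation. The gene lies at chr5:31596935-31664384 on the plus strand (ENSMUSG00000106918.3, mm10). Annotated Mrpl33-201 has 4 exons, the second of them only 19 bases long, at chr5:31614603-31614621. A model of 3 exons and 465 bases, which the tables class as having a new junction, held 335 of 340 reads (98.5%, Wilson 95% interval 96.6 to 99.4%) in replicate 1. In replicate 2 it held 744 of 770 reads (96.6%, interval 95.1 to 97.7%). Mrpl33-201 had 0 reads in both libraries. The model leaves out the 19-base exon and ends its first exon at 31614030, 8 bases beyond the annotated end at 31614022. The 2 forms are shown from the start codon, because they differ inside the coding sequence. The first line is the annotated order of exons, with the 19-base exon in capitals, and the second is the model of the reads, with its 8 added bases in capitals.
Mrpl33-201: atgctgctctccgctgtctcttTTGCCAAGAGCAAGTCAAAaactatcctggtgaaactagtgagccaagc
Mrpl33 model of the reads: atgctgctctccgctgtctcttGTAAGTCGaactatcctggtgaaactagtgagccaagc

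In the annotated order the reading frame held 195 coding bases, a multiple of 3, with its stop at codon 66. Over the same exons the model of the reads had 184 coding bases, with a remainder of 1, and its frame from the same start codon reached a stop at codon 43. Models that held the 19-base exon had 1 read in replicate 1 and 6 reads in replicate 2. No read joined the annotated end of the first exon straight to the next long exon in either library. All of the capital letters in the second line are intron in Mrpl33-201, though other annotated transcripts such as Mrpl33-203 hold them in an exon, and the 6 bases that come next there, GTCTGA, also open with the GT of a usual splice donor. Without gaps, the 8 added bases matched the 19-base exon best from its base 10, where 6 of 8 letters were the same (GTAAGTCG against GCAAGTCA). The tables hold models and counts but no read sequences, so whether the reads carried the 19 bases was not tested. The gene's summed count does not depend on which of the 2 forms is right.

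**Figure D2:**
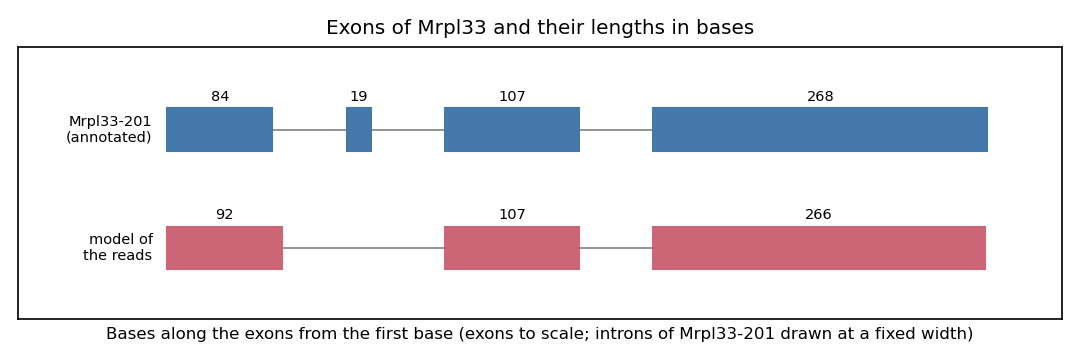
Exons of annotated Mrpl33-201 and of the model that held 98.5% and 96.6% of the gene's reads, with exon lengths in bases above each box; exons are to scale along the horizontal axis. The model lacks the 19-base exon and its first exon is 92 instead of 84 bases long.

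The other short internal exons had few reads or were passed over. The annotation of the members has 4 internal exons of at most 30 bases. The 30-base exon of Mrpl4 was held by 3 reads and 1 read and skipped by none. The 24-base exon of Mrpl4-207 was held by no read and passed over by 73 and 93 reads. The 26-base exon of Mrpl24-205 was held by 1 and 0 reads and passed over by 17 and 15. Mrpl33 was thus the only one of the 4 with more than 100 reads across the site in a library.

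Most other members were read as annotated. In 72 of the 78 genes the leading isoform, matched between libraries by its chain of junctions, was an annotated one in both libraries. In the median member it held 86.3% of reads in replicate 1 and 84.8% in replicate 2. It held over 90% in both libraries in 19 members and under 60% in both in 3. The same isoform led in both libraries in 74 members. The other 4 were Mrps2, Mrps10, Mrps22 and Mrpl51. Annotated models held 80.3% (Wilson 95% interval 79.3 to 81.3%) of member reads in replicate 1 and 70.5% (69.7 to 71.3%) in replicate 2, a mean of 75.4 ± 6.93% (SD, n = 2). Over all annotated genes the shares were 69.5% and 67.6%. Without Mrpl24, Mrpl30 and Mrpl33, whose reads were mostly in other classes, the members' shares were 90.1% and 86.3%; these 3 were set aside after their values were seen.

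**Figure D3:**
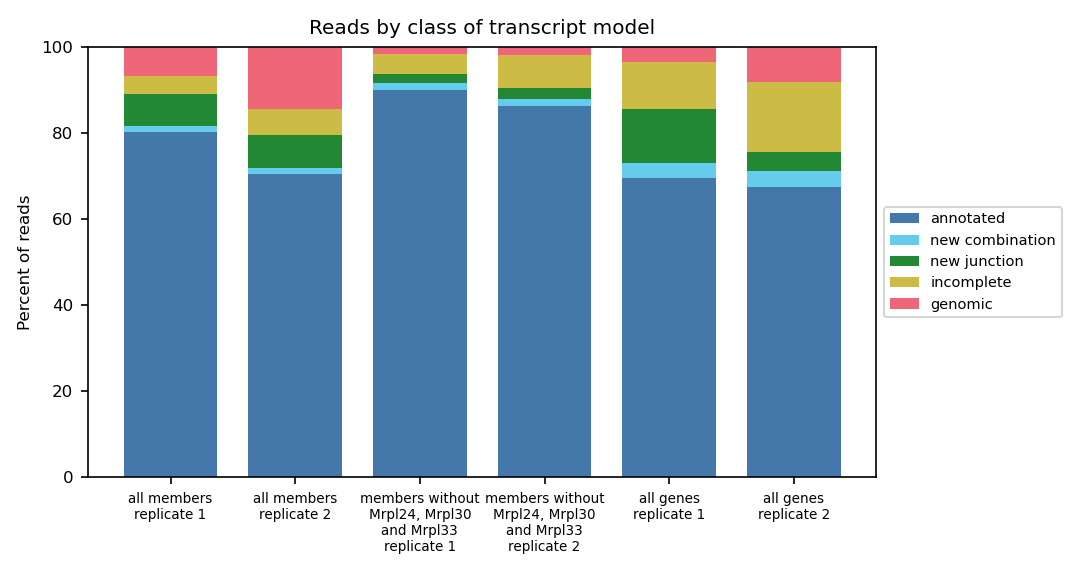
Percent of reads by class of transcript model in all members, in members without Mrpl24, Mrpl30 and Mrpl33, and in all annotated genes, each for replicates 1 and 2. Annotated models hold 80.3% and 70.5% of member reads, and genomic models, 6.84% and 14.4%, shrink to 1.69% and 1.93% without the 3 genes.

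Genomic models, single-exon models that follow no annotated junction, held 6.84% of member reads in replicate 1 and 14.4% in replicate 2. Over all annotated genes their shares were 3.47% and 8.23%. Of the members' genomic reads, a single stretch of Mrpl30 made up most. It spans 174 bases at chr1:37898165-37898338, inside the last exon of the gene (37898061 to 37898535), and held 255 of 356 Mrpl30 reads (71.6%) in replicate 1 and 1485 of 1762 (84.3%) in replicate 2. The share rose by 12.7 percentage points, with an adjusted p of 4.34e-07 in a two-sided Fisher exact test adjusted over 1769 genes. Both ends of the stretch coincide with annotated transcript ends of the gene, and the ends of the reads themselves are not in the tables. Its first 97 bases are coding, up to the annotated coding end at 37898261, and are shown because they are the coding part of the model that held most Mrpl30 reads.
Mrpl30 coding part of the stretch: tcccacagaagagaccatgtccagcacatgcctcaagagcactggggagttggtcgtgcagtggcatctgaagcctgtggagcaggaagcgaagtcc

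The rest of the stretch is 3′ UTR. It contains ATTAAA, a known variant of the polyadenylation signal, which starts 25 bases before its end. Of the 20 bases that follow the stretch, 2 are A. The complete models of Mrpl30, annotated or with new combinations or junctions, had 101 reads in replicate 1 and 276 reads in replicate 2, led by Mrpl30-201 with 84 and 224. Mrpl30 was therefore the highest member only with the single-exon reads counted.

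Mrpl24, a conserved large subunit protein at chr3:87919506-87923672, had a genomic model listed at 1 base. That entry held 67 of 100 reads (67.0%) in replicate 1 and 220 of 266 (82.7%) in replicate 2. Its complete models had 33 and 46 reads. A length of 1 base cannot be that of a sequenced read, so what those reads cover is not known from the tables.

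Pieces of the 3′ end formed another departure. Incomplete models held 3.99% of member reads in replicate 1 and 6.09% in replicate 2, beside 11.0% and 16.1% over all annotated genes. For Mrpl51, a large subunit protein without a bacterial counterpart, a last-exon piece of 336 bases at chr6:125193223-125193558 held 47 of 107 reads (43.9%) and 186 of 307 (60.6%). The share of Mrpl51-201 was 51.4% and 34.5%. Mrps22, a mitochondrial addition to the small subunit, had an incomplete model of its last 5 of 8 exons (680 bases) with 8 of 25 reads (32.0%) in replicate 1 and 64 of 93 (68.8%) in replicate 2. In Mrps2 a last-exon model held 5 of 12 and 26 of 32 reads. In Mrpl16, a conserved large subunit protein, a last-exon piece of 646 bases held 32.0% and 42.9% of reads and the 4-exon Mrpl16-201 held 68.0% and 55.4%. In each of these 4 genes the piece took a larger share in replicate 2 than in replicate 1. Mrpl51, Mrps22 and Mrps2 were named because the piece led in replicate 2 only, so that choice partly set the direction. In many other members a last-exon piece also took a larger share in replicate 2. Such shares were 15.0% and 33.0% in Mrps11, 6.06% and 25.9% in Mrpl9 and 27.8% and 35.6% in Mrpl44. Some went the other way, such as 18.4% and 11.4% in Mrpl13 and 5.71% and 4.27% in Mrpl14. The difference between the libraries was called for Mrpl51 (Fisher exact, adjusted p = 0.0107). For Mrpl16 the form tested was the annotated one, which was not called (Fisher exact, adjusted p = 0.296), and the piece itself was not tested. Mrps22 and Mrps2 had under 50 reads in replicate 1 and were not tested. With a minimum of 20 reads in each library, 5 of 75 members (6.67%) were called, Mrps22 among them. Of all genes tested at that minimum, 25.2% were called.

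The leading isoform's share differed between the libraries in 5 of 49 members tested (10.2%), called at an adjusted p under 0.05 in two-sided Fisher exact tests. Over all 1769 genes tested the background was 37.8%. The 5 were Mrpl20, Mrpl24, Mrpl30, Mrpl39 and Mrpl51. The conserved large subunit gene Mrpl20 fell from 84.3% to 68.9% (Fisher exact, adjusted p = 0.0305), beside a single-exon stretch of 124 bases with 10 and 38 reads. Mrpl39, a mitochondrial addition to the large subunit, fell from 73.6% to 52.7% (Fisher exact, adjusted p = 0.0397), beside an incomplete 3-exon model of 308 bases with 7 and 28 reads. With a minimum of 20 reads in each library, Mrpl39 was no longer called. In Mrpl24, Mrpl30 and Mrpl51 the leading form was itself the genomic or last-exon piece, and its share rose. With complete classes alone, 0 of 43 members were called by the Fisher exact test (0 at an unadjusted p under 0.05), beside 3.42% of all genes tested.

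Closely spaced alternative splice sites were used in 4 members. Pairs of junctions that shared one side, lay at most 30 bases apart on the other and had at least 5 reads each in both libraries were found in Mrpl40, Mrpl55, Mrps10 and Mrps36; this rule was set after the values were seen. All 5 pairs differed in the acceptor. Mrps10, a conserved small subunit protein, is shown because its forms differ by a single codon. The capitals mark the 3 bases that Mrps10-203 holds and Mrps10-204 does not, where exon 2 meets exon 3 on chr17 (plus strand, between 47372472 and 47372595).
Mrps10-203: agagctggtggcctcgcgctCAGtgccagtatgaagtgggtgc
Mrps10-204: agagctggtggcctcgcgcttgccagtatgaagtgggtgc

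The longer form took 22 of 39 reads across the junction (56.4%, Wilson 95% interval 41.0 to 70.7%) in replicate 1 and 41 of 92 (44.6%, interval 34.8 to 54.7%) in replicate 2. The intervals overlap, and the two-sided Fisher exact p of the difference was 0.253. In Mrpl55, a conserved large subunit protein, acceptors 3 bases apart took 33 and 14 reads in replicate 1 and 91 and 36 in replicate 2, 70.2% and 71.7% for the lower coordinate. A further pair 21 bases apart gave the lower coordinate 27.1% and 21.6%. In Mrps36 the lower coordinate of acceptors 6 bases apart took 8.54% and 12.9%. In Mrpl40, acceptors 29 bases apart gave it 84.3% and 78.2%. Mrps17, a conserved small subunit protein, was among the members with the lowest leading share: Mrps17-201 took 48.8% and 49.0%, with Mrps17-205 next at 13.2% and 12.0%.

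Between the libraries, 12 of the 78 members (15.4%) were called, all with more CPM in replicate 2. A call needed an adjusted p under 0.05, in a two-sided exact binomial test adjusted over 8339 genes, and at least a 2-fold difference. Over all genes tested the background was 5.53% higher in replicate 2 and 12.0% higher in replicate 1, 17.5% in all. The members' median log2 ratio of replicate 2 over replicate 1 was 0.55, with quartiles of 0.22 and 0.85, beside a median of -0.28 over all genes. The ratio was above 0 in 67 members (85.9%), beside 38.8% of all genes. At an adjusted p under 0.05 without the fold threshold, 37 members were higher in replicate 2 and none in replicate 1, beside 28.9% of all genes in either direction. The background holds genes with fewer reads than any member. At a minimum of 20 reads in sum, which all 78 members reached, 12 were called, beside 6.98% of genes in that direction and 21.3% in all. When the trend with coding length was removed, only 3 members were called (Mrpl30, Mrpl32 and Mrps22), beside 5.38% of all genes in that direction, with a members' median of 0.35 beside -0.02 over all genes. With TMM scaling or DESeq2 size factors, 30 and 34 members were called, all higher in replicate 2, beside 10.2% and 13.0% of all genes in that direction. These scalings put the median of all genes at 0.01 and 0.13.

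**Figure D4:**
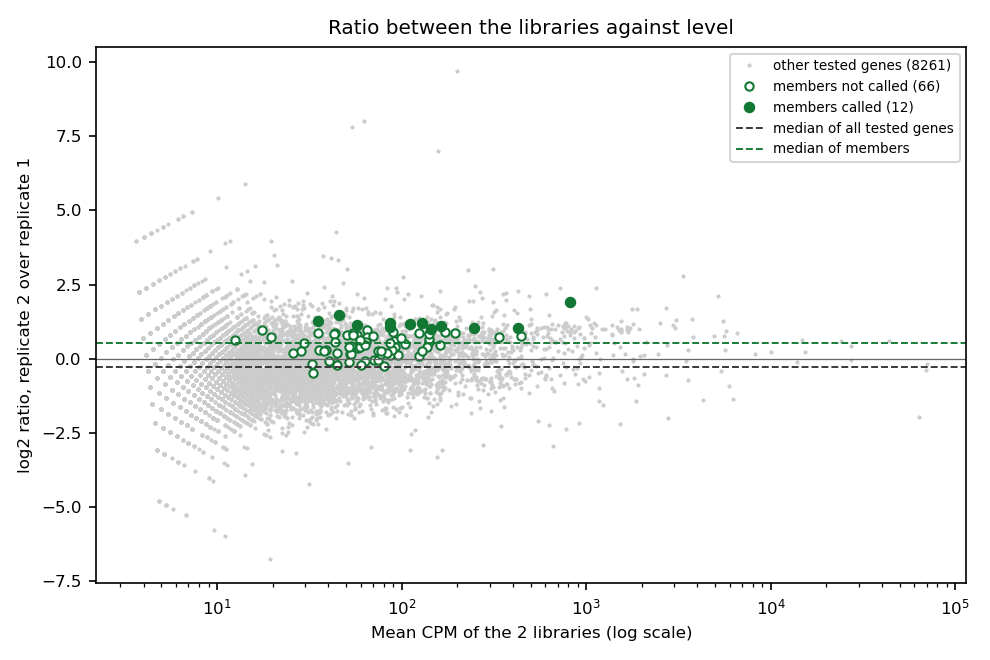
log2 ratio of replicate 2 over replicate 1 against mean CPM (log axis) for all 8339 genes tested, with the 12 called members filled and the 66 others open. The dashed lines mark the medians, 0.55 for members and -0.28 for all genes. The filled points, all higher in replicate 2, lie above the members' median because a call needed at least a 2-fold difference.

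Of the 12 called members, 10 were Mrpl genes, which make up 49 of the 78 members. Mrpl30 had the largest ratio, a log2 ratio of 1.90 (95% interval 1.74 to 2.07, exact binomial, adjusted p = 1.28e-143). Counted on complete models alone, against the same library totals, its log2 ratio was 1.04. Mrps22 had 25 reads (24.1 CPM) and 93 reads (67.7 CPM), a log2 ratio of 1.47 (interval 0.84 to 2.19, exact binomial, adjusted p = 1.25e-05), and 0.08 on complete models. Mrpl51 had 1.11 on all models and 0.56 on complete ones, and Mrpl24 had 1.00 and 0.07. In these 4 genes most of the excess lay in incomplete or genomic models.

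In the other 8 called members the complete models carried the difference. Mrpl32, a conserved protein that is processed by a mitochondrial protease before it joins the ribosome, had 21 reads (20.3 CPM) in replicate 1 and 69 reads (50.2 CPM) in replicate 2, a log2 ratio of 1.29 (exact binomial, adjusted p = 0.00112). Mrpl53 had 80 and 248 reads (log2 ratio 1.22) and Mrpl54 had 54 and 167 (1.21). Both are mitochondrial additions to the large subunit, like Mrpl42 (1.05). The conserved Mrpl14 had 70 and 211 reads (1.18), the conserved Mrpl11 had 37 and 108 (1.13) and the conserved Mrpl55 had 57 and 161 (1.08). Mrps36 had a log2 ratio of 1.04. In these 8 the log2 ratio on complete models was between 1.02 and 1.41. Adjusted p-values of the 12 ranged from 1.28e-143 to 0.00112 in the exact binomial test.

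By role, the 16 conserved small subunit genes had 0 called, with a median log2 ratio of 0.73, and the 11 other small subunit names had 2 (Mrps22 and Mrps36), with a median of 0.52; Mrps36 stands there by its name only. Of the 30 conserved large subunit genes (Mrps18a and Mrps30 are among the large subunit genes by their place in the ribosome) and 21 mitochondrial additions, 6 and 4 were called, with medians of 0.60 and 0.40. Over all genes tested 5.53% were called higher in replicate 2. Differences between the roles were not tested. Just below the fold threshold, Mrpl33 had a log2 ratio of 0.77 (interval 0.59 to 0.96), Mrps21 of 0.75, Mrps14 of 0.86 and Mrps24 of 0.91. Ratios below 0 were found in 11 members, and the lowest was that of Mrpl10, a conserved large subunit protein, with 40 and 38 reads and a log2 ratio of -0.48 (exact binomial, adjusted p = 0.332).

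The ratio moved with coding length, which is short in this gene group. The members' median coding length was 582 bases, beside 1242 bases in 7860 tested protein-coding genes. The 23 members under 450 bases had a median log2 ratio of 0.75, beside 0.58 in 661 other genes of that length. The 40 members from 450 up to 900 bases had a median of 0.61, beside 0.06 in 1806 other genes. The 15 members of 900 bases or more had a median of -0.07, beside -0.56 in 5315 others. Of the calls, 7, 4 and 1 fell in these ranges, beside 5.53% of all genes tested called higher in replicate 2. The called share of other genes was not counted for each range. Over the 78 members the Pearson r of log2 ratio with log2 coding length was -0.51, as a description across genes of the same libraries. The 2757 other genes between 358 and 1054 bases, the 10th and 90th percentiles of the members, were called higher in replicate 2 in 5.66% of cases. That span leaves out part of the range under 450 bases, in which most of the calls fell. The part that length has in the members' calls was not tested beyond these values.

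**Figure D5:**
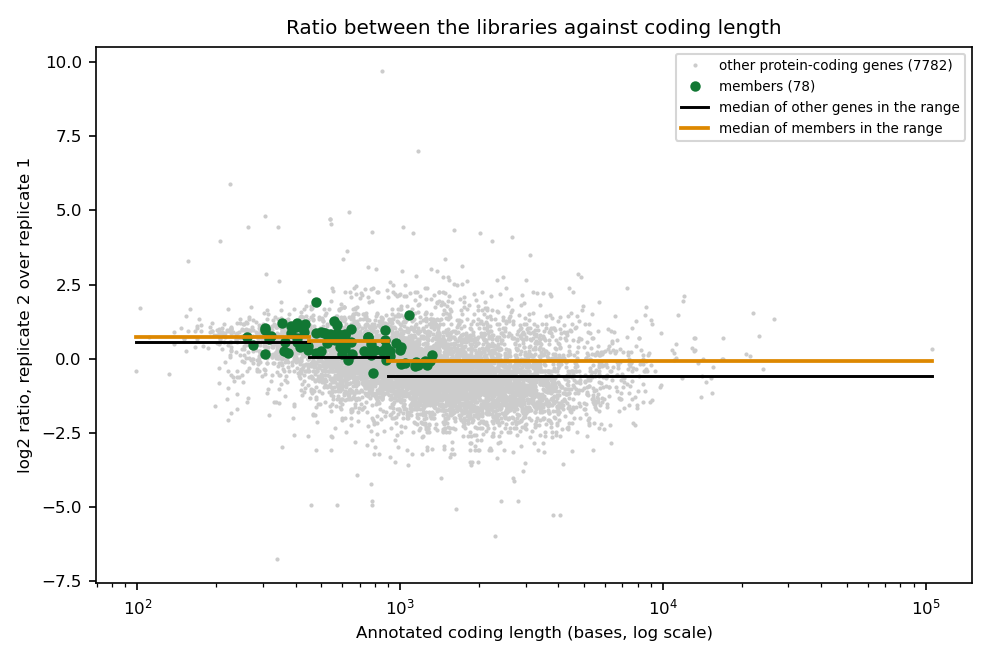
log2 ratio of replicate 2 over replicate 1 against annotated coding length (bases, log axis) for the 78 members and 7782 other tested protein-coding genes; horizontal lines mark the medians of each in 3 length ranges, split at 450 and 900 bases. Both sets decline with length, from medians of 0.75 and 0.58 below 450 bases to -0.07 and -0.56 at 900 bases or more.

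The mitoribosome also contains proteins with other names, and of 5 of these, 1 was called. Gadd45gip1, a large subunit protein, had 149 reads (144 CPM) and 466 reads (339 CPM), a log2 ratio of 1.24 (exact binomial, adjusted p = 1.68e-20). Chchd1, a small subunit protein, had 83.9 and 163 CPM and was not called. The cytosolic ribosomal protein genes had a median log2 ratio of 0.56 over 83 tested, with 7 called, all upwards in replicate 2. For both lists the background was the 5.53% of all genes tested that were called in that direction. The median of the cytosolic genes was close to that of the members, and no test of the difference was made.

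Genes that build or serve the mitoribosome are given beside the median of -0.28 over all genes tested and the share of those genes that passed, 5.53% with replicate 2 higher and 12.0% with replicate 1 higher. Of 27 assembly factors, 21 were tested, 2 were called, both with fewer CPM in replicate 2, and the list's median log2 ratio was -0.12. Those 2 were the RNA helicase Dhx30, with 35 and 16 reads (log2 ratio -1.51), and the pseudouridine synthase Trub2, with 23 and 12 (-1.32). The highest assembly factors were C1qbp, with 95.5 and 126 CPM, and Malsu1, with 56.0 and 77.1 CPM. Of 16 translation factors and mRNA regulators, 1 was called in each direction, with a median of -0.32. Slirp had 184 and 510 reads (log2 ratio 1.06), and Lrpprc, which binds Slirp and mitochondrial mRNAs, had 72 and 43 (-1.14). After Slirp, the elongation factor gene Tufm was the highest of that list with 73.3 and 51.7 CPM. Of 20 genes for mitochondrial aminoacyl-tRNA synthesis, 17 were tested and the median log2 ratio was -0.70. The histidyl-tRNA synthetase gene Hars2 was the 1 called, with 18 and 6 reads (-1.92). Fars2, with 46.3 and 44.4 CPM, and Gatb, with 35.7 and 25.5 CPM, were its highest genes.

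The RNAs that the mitoribosome reads and is built on were higher in replicate 2 as well. Of 15 mitochondrially encoded genes, 12 were tested and all 12 were called, each with more CPM in replicate 2. Over all genes tested, 5.53% were called in that direction. Their median log2 ratio was 2.15 and their sums were 2795 and 13266 CPM. The highest were mt-Cytb, with 853 and 5853 CPM, and mt-Co1, with 899 and 2882 CPM. The small and large ribosomal RNAs mt-Rnr1 and mt-Rnr2 had 31 and 216 reads and 110 and 608 reads. The summed CPM of the members rose from 5784 to 9662.

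Position in the genome was a feature that the choice of members by name did not use. The 78 genes lie on 17 chromosomes, with at most 11 on one. A protein-coding gene on the opposite strand has its start within 1000 bases of the start of 33 members (42.3%), beside 1429 of 7870 tested protein-coding genes (18.2%). That background was counted separately from the 7860 genes of the coding-length comparison and is slightly larger. Mrps11 and Mrpl46, a small and a large subunit gene, are such a pair of members. Mrps11 had 40 and 97 reads and Mrpl46 had 36 and 57. Some other neighbours, picked after the list was seen, serve mitochondria: Sars2, a mitochondrial seryl-tRNA synthetase, is paired with Mrps12, Ndufs6 of complex I with Mrpl36, Ndufb5 of complex I with Mrpl47, and Twnk, the mitochondrial DNA helicase, with Mrpl43. Among called members, Mrpl30 starts 66 bases from Mitd1, Mrpl54 26 bases from Apba3 and Mrpl32 75 bases from Psma2.

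Promoter windows of 250 bases before to 50 after the gene start were found by symbol for 69 members in RefSeq (GRCm38.p6). The letters CCGGAAG, a core of ETS factor sites, stood on either strand in 25 of 69 windows (36.2%), beside 20.0% of 6403 windows of tested genes and 9.12% of all 27025. GCGCA followed by any base and GCGC, the core of nuclear respiratory factor NRF1 sites, stood in 13 (18.8%), beside 12.0% and 4.78%. AAGATGGC, a core of YY1 sites, stood in 12 (17.4%), beside 5.61% and 2.88%. TATAAA stood in 4 (5.80%), beside 7.26% and 14.2%, CCAAT in 27 (39.1%), beside 38.9% and 37.9%, and the E-box CACGTG in 5 (7.25%), beside 10.9% and 7.24%. Each motif was counted on its own, so matches of different motifs may overlap. A match is a description of the letters and not of binding. The windows of the 4 highest members are shown, because each holds at least 1 of these motifs, and capitals mark the ETS, NRF1 and YY1 letters on either strand.
Mrpl30 chr1:37890227-37890526 plus strand: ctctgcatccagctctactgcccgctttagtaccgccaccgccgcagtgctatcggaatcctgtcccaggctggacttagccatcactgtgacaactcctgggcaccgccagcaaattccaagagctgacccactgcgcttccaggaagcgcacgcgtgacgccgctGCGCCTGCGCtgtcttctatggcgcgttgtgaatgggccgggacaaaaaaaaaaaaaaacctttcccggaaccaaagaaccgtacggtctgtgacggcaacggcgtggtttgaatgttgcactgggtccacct
Mrpl33 chr5:31613701-31614000 plus strand: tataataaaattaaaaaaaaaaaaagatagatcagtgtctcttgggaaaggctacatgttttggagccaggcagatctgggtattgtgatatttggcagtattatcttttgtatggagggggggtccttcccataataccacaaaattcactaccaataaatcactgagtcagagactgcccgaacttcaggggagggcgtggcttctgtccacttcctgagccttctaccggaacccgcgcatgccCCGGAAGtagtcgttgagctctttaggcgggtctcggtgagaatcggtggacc
Mrpl42 chr10:95501900-95502199 minus strand: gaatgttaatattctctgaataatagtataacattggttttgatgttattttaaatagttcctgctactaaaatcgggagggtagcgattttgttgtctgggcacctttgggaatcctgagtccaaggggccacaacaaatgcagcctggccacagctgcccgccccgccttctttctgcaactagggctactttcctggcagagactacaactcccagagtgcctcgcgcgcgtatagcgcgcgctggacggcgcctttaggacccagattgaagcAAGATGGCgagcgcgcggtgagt
Mrps21 chr3:95871465-95871764 minus strand: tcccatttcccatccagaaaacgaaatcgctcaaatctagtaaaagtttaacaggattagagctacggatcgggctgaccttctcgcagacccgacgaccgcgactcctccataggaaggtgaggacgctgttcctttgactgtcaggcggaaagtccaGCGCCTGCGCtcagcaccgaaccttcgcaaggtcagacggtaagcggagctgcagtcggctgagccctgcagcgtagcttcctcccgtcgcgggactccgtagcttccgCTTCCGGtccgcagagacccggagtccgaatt

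Of the ETS, NRF1 and YY1 motifs, the Mrps21 window holds 2 and each of the other windows 1. In Mrpl42 the YY1 letters lie near the gene start, and in Mrpl33 and Mrps21 the ETS letters do. The median G and C content of the members' windows was 58.3%, beside 61.3% in windows of tested genes.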

How the data were processed

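Long reads of 2 gastrocnemius libraries were analysed from the deposited tables, whose raw counts are numbers of reads per transcript model, with 1 table a library. Per the file headers, the assembly was mm10 and the annotation GENCODE M21; the aligner is not given in the sources used here. Deposited annotation files hold the exon positions. The counts of all models of a gene were added up, spike-ins were left out, and CPM were counts per 1e6 of a library's gene reads.

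Each gene with a sum of 10 reads or more had its counts compared, given the library totals, in an exact conditional binomial test (two-sided, the smaller tail times 2), with Benjamini-Hochberg adjustment over all genes, and called at an adjusted p under 0.05 and 2-fold; log2 ratios had 0.5 reads added. With 1 library on each side, edgeR's quasi-likelihood test has no residual degree of freedom. Leading isoforms were compared with two-sided Fisher exact tests wherever both libraries had 50 reads or more for the gene, with models matched by their junctions and overlapping unannotated single-exon models joined. Shares carry Wilson 95% intervals. "Complete" models are annotated, new-combination and new-junction models, and "incomplete" models match part of an annotated one. The length trend was fitted by lowess (fraction 0.3) to genes of 50 reads or more, on the length of the leading complete model or, added after seeing the data, on coding length. TMM factors came from edgeR 4.0.16 and size factors from DESeq2 1.42.0. Tests ran in Python with scipy and were tested on simulated data. Transcript sequences are GENCODE M21's and promoter windows RefSeq's.

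The members and lists were chosen with earlier results of these data known. Values are named for Mrpl33, the 8 highest and 5 lowest members, every member called between the libraries or for its leading share, those led by an unannotated model, those with at least 2 isoforms of 20% or more in both libraries, and, in the other lists, called genes and the 2 highest.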

Additional observations from a re-analysis of the deposited data

Results flagged for a closer look

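A signal outside the genes compared was that of Mrpl23-ps1, a pseudogene of Mrpl23 that the choice of members left out. It had 84 reads in replicate 1 and 124 reads in replicate 2, 81.1 and 90.2 CPM, far above the 3 reads that a count of 0 allows. Mrpl23 itself, a conserved large subunit gene, had 91 and 219 reads, so the pseudogene took 48.0% and 36.2% of the reads of the pair. A gene and its processed copy can share reads, so both counts are uncertain, and how the reads were divided between them was not tested. The other pseudogenes with reads, Mrps36-ps1 (2 and 1 reads) and Mrpl48-ps (1 and 0 reads), were at or under that limit.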

How the results depend on the processing

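No paired analysis was possible because the labels give 1 group. Under the 10 alternatives to the count of called members, all calls stayed higher in replicate 2. The count was 12 in the main setting, 30 with TMM scaling, 34 with DESeq2 size factors, 33 at a 1.5-fold threshold and 3 with the coding-length trend removed; it was between 11 and 18 in the others. Only Mrpl30 and Mrpl32 were called in every setting. With the trend on model length removed, 16 members were called, 5 of them among the 12. On complete classes, Mrpl24, Mrpl51 and Mrps22 were no longer called. The members' median log2 ratio was 0.83 with TMM scaling and 0.96 with DESeq2 size factors. It was 0.39 with the model-length trend removed and 0.35 with the coding-length trend removed. A scaling moves the ratio of every gene by the same amount, so the members' median stood 0.82 above that of all genes under all 3 by construction. It stood 1.06 above on complete classes, 1.03 without genomic models, and 0.45 and 0.37 above after the 2 length corrections. Calls of the leading isoform's share went from 5 to 0 on complete classes. Leaving out 1 library gave 2085 to 3174 CPM for the Mrps genes, 3699 to 6488 CPM for the Mrpl genes and 70.5 to 80.3% for the annotated share. The other alternatives to these levels and shares, and a minimum of 5 reads for detection, moved no value beyond the spread between the libraries. The cause was not tested in any of these cases. Low read counts limit the precision of the lowest members, such as Mrpl19 with 10 and 21 reads, and 2 libraries with 1 donor entry give no estimate of the spread between animals.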
